A study of Mus musculus with 6 samples.

Results

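The 10 genes described here encode the central machinery of lytic cell death: the inflammasome sensors *Nlrp3* and *Nlrp1b*, the adaptor *Pycard*, the inflammatory caspases *Casp1* and *Casp4*, the pore former *Gsdmd*, and the necroptosis genes *Casp8*, *Ripk1*, *Ripk3* and *Mlkl*. They were chosen by symbol, and all 10 were found among the 46603 genes of the count table and passed the filter on low counts. Gene counts were measured by bulk RNA-Seq in CD11B+ cells, taken with magnetic beads from whole kidneys of male mice aged 10 to 12 weeks, at day 3 of IRI-AKI (both renal pedicles clamped for 28 minutes). The 3 mice called PTEC DN RAR, PEPCK CRE+ with the Rosa26-LSL-RARaT403X allele, express a dominant negative retinoic acid receptor in proximal tubular epithelial cells (PTECs), and the 3 Cre- controls carried that Rosa26 allele but were PEPCK CRE-. There was 1 library per mouse, and every mouse was injured. The comparison asks how blocking retinoic acid receptor signaling in the tubule changed the transcripts of the CD11B+ cells. The PEPCK promoter drives Cre mainly in proximal tubule, controls without Cre do not separate Cre from the receptor, and the PEPCK-Cre line had a mixed 129svJ and C57BL/6 background against C57BL/6 for the receptor line, so genotype and strain background cannot be told apart.

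Inflammasomes are complexes in which a sensor such as NLRP3 or NLRP1B recruits caspase-1, with or without the adaptor ASC (the product of *Pycard*). Caspase-1 matures IL-1β and IL-18 and cleaves gasdermin D, whose freed part forms pores in the plasma membrane, and caspase-11 (the product of mouse *Casp4*) cleaves gasdermin D after binding lipopolysaccharide. In necroptosis, RIPK1 and RIPK3 assemble when caspase-8 is not active, and RIPK3 phosphorylates MLKL, which then permeabilizes the membrane. Transcript levels do not report the activation of these proteins, which is set by assembly, cleavage and phosphorylation.

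The libraries held 29318041 to 40741507 gene counts in Cre- controls and 42113139 to 46517005 in PTEC DN RAR mice, and each of the 10 genes had at least 703 reads in every library. Levels are CPM, read counts relative to library size scaled by TMM, and differences were tested over 15440 genes with edgeR's quasi-likelihood test and Benjamini-Hochberg adjustment. *Itgam*, which encodes CD11B, was at 1737 to 1995 CPM in controls and 980.3 to 1366 CPM in PTEC DN RAR mice. It was itself called lower (log2 fold change -0.64, SE 0.14; edgeR, adjusted p = 0.00818). Cell type markers differed widely between genotypes. Summed markers of infiltrating monocytes were at 3812 to 4113 CPM in controls and 1611 to 1673 CPM in PTEC DN RAR mice, with 7 of 8 called lower, and those of neutrophils were at 468 to 842 against 296 to 419.9 CPM, with 5 of 9 tested called lower. Resident macrophage markers overlapped, at 15527 to 20411 against 17762 to 22707 CPM. Proximal tubule markers were at 1037 to 1251 against 2732 to 4163 CPM, with 14 of 14 called higher, and thick ascending limb markers at 1169 to 1562 against 4438 to 8464 CPM, with 5 of 5 called higher. All 8 endothelial markers were called higher, and no marker list had a gene at 0 in all libraries. Mitochondrial transcripts took 5.03% to 8.77% of counts in controls and 10.38% to 12.08% in PTEC DN RAR mice. Because these are bulk preparations, fewer cells of a type and less RNA per cell cannot be told apart. The part of these shifts in the changes below was not tested. Each of the 10 genes is also given on a scale set by 25 pan-leukocyte genes (such as *Ptprc* and *Coro1a*) in place of TMM. This scale does not adjust for shifts between kinds of leukocyte. On it, infiltrating monocyte markers had a median log2 fold change of -0.76 (6 of 8 called lower). Neutrophil markers had -1.01 (4 of 9 tested called lower), resident macrophage markers 0.38 (4 of 8 called higher), and *Itgam* was at -0.44 (edgeR, adjusted p = 0.0145). Under TMM these 25 genes summed to 15572 to 16513 CPM in controls and 12625 to 14555 CPM in PTEC DN RAR mice, with 7 called lower and a median log2 fold change of -0.19, so values on this scale are higher than with TMM.

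**Figure D1:**
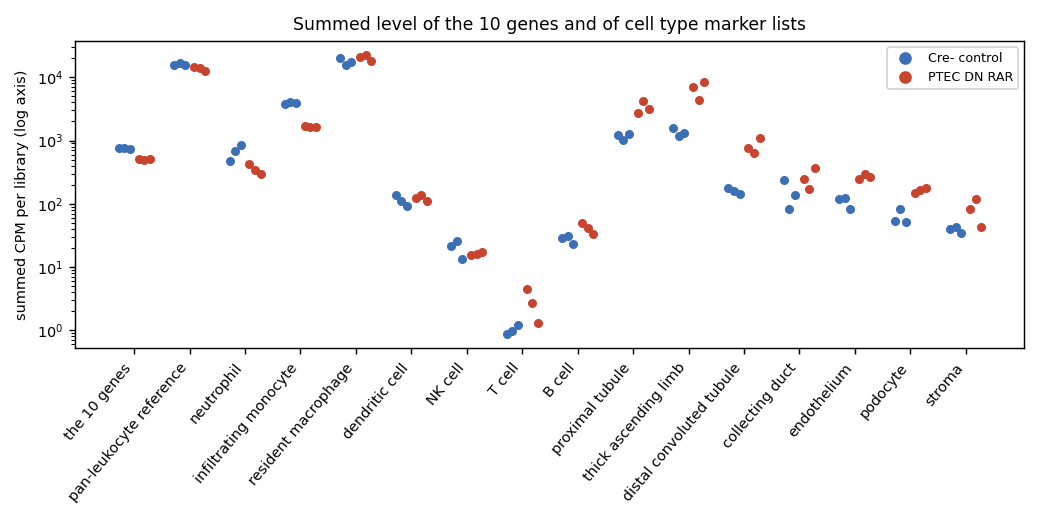
Summed CPM (log axis) of the 10 genes and of 15 marker lists in each library, with Cre- controls in blue and PTEC DN RAR mice in red. The 10 genes summed to 744 to 765 CPM in controls and 499.7 to 518 CPM in PTEC DN RAR mice. Infiltrating monocyte, neutrophil and pan-leukocyte sums were also lower without overlap. Those of proximal tubule, thick ascending limb, distal convoluted tubule, endothelium, podocyte, stroma, T cells and B cells were higher. For stroma, the lowest PTEC DN RAR library (43.0 CPM) was near the highest control (42.6 CPM).

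Of the 10 genes, 8 were lower in PTEC DN RAR mice (*Mlkl*, *Ripk3*, *Nlrp3*, *Casp8*, *Ripk1*, *Casp1*, *Casp4* and *Pycard*), 0 were called higher, and *Gsdmd* and *Nlrp1b* were not called (edgeR). At an unadjusted p under 0.05 in the same fit, which 7745 of the 15440 genes passed in either direction, 9 of the 10 were lower and 1, *Nlrp1b*, was higher, and limma-voom with adjustment called 1 higher and DESeq2 called 0. Of all genes tested, 17.1% were called lower and 23.6% higher. The median log2 fold change was -0.62 for the 10 genes and 0.04 for all genes. The genotypes did not overlap for 8 of the 10 genes, with all PTEC DN RAR libraries below all controls, against 53.4% of all genes not overlapping in either direction. On the pan-leukocyte scale the median of all genes moved to 0.25, and calls over all genes went from 2636 lower and 3640 higher to 742 lower and 4900 higher. On that scale 6 of the 10 (*Mlkl*, *Ripk3*, *Nlrp3*, *Casp8*, *Ripk1* and *Casp1*) were lower, *Nlrp1b* was higher, and the median of the 10 was -0.40. By log2 fold change, the 8 called genes ran in the order *Mlkl*, *Ripk3*, *Nlrp3*, *Casp8*, *Ripk1*, *Casp1*, *Casp4* and *Pycard*. *Gsdmd* changed least of the 10. Differences between genes in this order were not tested, and *Ripk3* and *Nlrp3* changed places without control replicate 2 (-0.95 and -0.98).

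**Figure D2:**
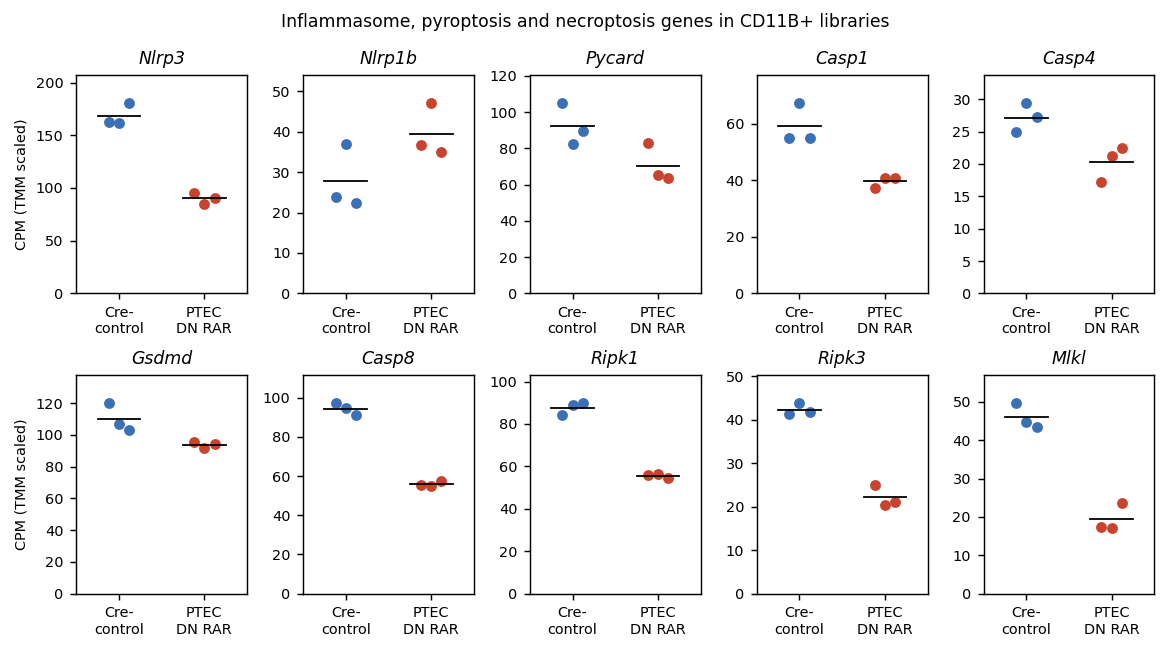
TMM-scaled CPM of each gene in each library, on linear axes that start at 0, with points for mice and a line for the mean of 3. The genotypes overlap for *Nlrp1b* and *Pycard* only, and all PTEC DN RAR libraries lie below all controls for the other 8.

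**Figure D3:**
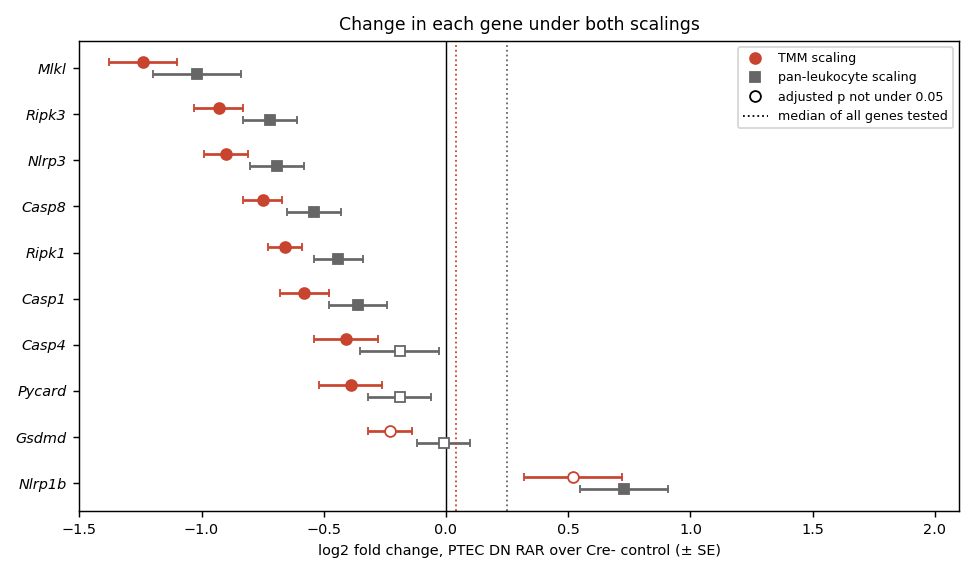
Log2 fold change of each gene (PTEC DN RAR over Cre- control, bars are SE) with TMM scaling (circles) and pan-leukocyte scaling (squares). Open symbols have an adjusted p of 0.05 or above, and dotted lines mark the median of all genes, 0.04 with TMM and 0.25 with pan-leukocyte scaling.

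*Mlkl* (ENSMUSG00000012519, chr8:111311797-111338177 on the minus strand of GRCm38), the pseudokinase that executes necroptosis, fell most. It was at 49.6, 44.8 and 43.5 CPM in the Cre- controls and at 17.5, 17.1 and 23.7 CPM in PTEC DN RAR mice. Replicate 3 was the highest of the PTEC DN RAR libraries and still far below the lowest control. The mean went from 46.0 ± 3.22 to 19.4 ± 3.71 CPM (SD, n = 3 each), which is 2.37-fold lower (log2 fold change -1.24, SE 0.14; edgeR, adjusted p = 0.000454). On the pan-leukocyte scale the change was -1.02 (edgeR, adjusted p = 0.00194).

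*Ripk3* (ENSMUSG00000022221, chr14:55784995-55788865, minus strand), the kinase that phosphorylates MLKL, was at 41.3, 43.8 and 41.9 CPM in controls and at 24.9, 20.5 and 21.1 CPM in PTEC DN RAR mice. The controls lay close to one another and all PTEC DN RAR libraries were far below them. The level was 1.91-fold lower (log2 fold change -0.93, SE 0.10; edgeR, adjusted p = 0.000407), and -0.72 on the pan-leukocyte scale (edgeR, adjusted p = 0.00104). The count ratio of *Mlkl* to *Ripk3* overlapped between genotypes, at 1.02 to 1.20 in controls and 0.702 to 1.12 in PTEC DN RAR mice.

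*Ripk1* (ENSMUSG00000021408, chr13:34002363-34037147, plus strand), the kinase and scaffold downstream of TNF receptor 1, was at 84.1, 88.9 and 89.7 CPM in controls and at 55.9, 56.2 and 54.6 CPM in PTEC DN RAR mice. Its PTEC DN RAR libraries had the smallest SD of the 10 genes, at 0.849 CPM, and lay well below the controls. *Ripk1* was 1.57-fold lower (log2 fold change -0.66, SE 0.07; edgeR, adjusted p = 0.000504), and -0.44 on the pan-leukocyte scale (edgeR, adjusted p = 0.00647). *Ripk1* exons share 241 bases with *Serpinb6a* on the opposite strand and 511 bases with the pseudogene *Gm17084* on the same strand, of 8344 exon bases in all. Whether the counting used strand is not given in the sources used here. The ratio of *Ripk3* to *Ripk1* counts within a library, which no scaling affects, was 0.467 to 0.493 in controls and 0.365 to 0.446 in PTEC DN RAR mice, without overlap. This ratio and the others below were chosen after values had been seen and are given with no test.

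*Casp8* (ENSMUSG00000026029, chr1:58795374-58847503, plus strand), the protease that starts death receptor apoptosis and holds necroptosis in check, was at 97.1, 94.7 and 91.1 CPM in controls and at 55.6, 54.9 and 57.5 CPM in PTEC DN RAR mice. Both groups were tight and well apart. *Casp8* was 1.69-fold lower (log2 fold change -0.75, SE 0.08; edgeR, adjusted p = 0.000313), and -0.54 on the pan-leukocyte scale (edgeR, adjusted p = 0.00362). Its neighbour *Cflar*, which encodes the caspase-8 partner cFLIP and ends 36.5 kb before *Casp8* on chromosome 1, was not called. *Cflar* was at 101, 116 and 116 CPM in controls and 104, 127 and 108 CPM in PTEC DN RAR mice (log2 fold change 0.03, SE 0.10; edgeR, adjusted p = 0.852), and its sign turned with DESeq2 and with RLE scaling. The ratio of *Casp8* to *Cflar* counts was 0.961, 0.817 and 0.786 in controls against 0.533, 0.431 and 0.534 in PTEC DN RAR mice, so every PTEC DN RAR library had fewer *Casp8* reads for each *Cflar* read than any control.

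*Nlrp3* (ENSMUSG00000032691, chr11:59541568-59566956, plus strand), the sensor of potassium efflux and membrane damage, fell most among the inflammasome genes of the 10. It was at 163, 162 and 180.5 CPM in controls and at 94.8, 84.9 and 90.4 CPM in PTEC DN RAR mice. The highest PTEC DN RAR library was far below the lowest control. The mean went from 168 ± 10.4 to 90.0 ± 4.96 CPM (SD, n = 3 each), 1.87-fold lower (log2 fold change -0.90, SE 0.09; edgeR, adjusted p = 0.000284), with -0.69 on the pan-leukocyte scale (edgeR, adjusted p = 0.0012).

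*Casp1* (ENSMUSG00000025888, chr9:5298517-5307265, plus strand), the effector caspase of the inflammasome, was at 55.1, 67.4 and 55.2 CPM in controls and at 37.2, 41.0 and 40.7 CPM in PTEC DN RAR mice. It was 1.49-fold lower (log2 fold change -0.58, SE 0.10; edgeR, adjusted p = 0.00323), and -0.36 on the pan-leukocyte scale (edgeR, adjusted p = 0.0396). *Casp4* (ENSMUSG00000033538, chr9:5308828-5336783, plus strand) begins 1.6 kb after *Casp1* and was at 24.9, 29.4 and 27.2 CPM in controls and at 17.2, 21.3 and 22.5 CPM in PTEC DN RAR mice. The groups did not overlap for either caspase, and the ratio of *Casp4* to *Casp1* did overlap (0.436 to 0.493 against 0.463 to 0.554). *Casp4* was 1.33-fold lower (log2 fold change -0.41, SE 0.13; edgeR, adjusted p = 0.0299). Its call was lost on the pan-leukocyte scale (-0.19; edgeR, adjusted p = 0.374) and without control replicate 2 or 3 or PTEC DN RAR replicate 1 or 2 (edgeR, adjusted p from 0.0527 to 0.0894). *Casp12*, the next caspase gene, lies 8.6 kb further and was low, at 3.26 to 4.12 CPM in controls and 2.39 to 4.22 CPM in PTEC DN RAR mice (edgeR, adjusted p = 0.562).

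*Pycard* (ENSMUSG00000030793, chr7:127989708-127993867, minus strand), which encodes ASC, was at 105, 82.5 and 89.5 CPM in controls and at 82.7, 65.2 and 63.4 CPM in PTEC DN RAR mice. PTEC DN RAR replicate 1 overlapped the lowest control. *Pycard* was 1.31-fold lower (log2 fold change -0.39, SE 0.13; edgeR, adjusted p = 0.0409). Its call was lost on the pan-leukocyte scale (-0.19; edgeR, adjusted p = 0.289) and without control replicate 1 or 3 or PTEC DN RAR replicate 2 or 3 (edgeR, adjusted p from 0.0599 to 0.118). Of its exon bases, 12.76% are shared with *Gm45205* on the opposite strand.

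*Gsdmd* (ENSMUSG00000022575, chr15:75862327-75867408, plus strand), the pore former on which both inflammatory caspases act, was at 119.9, 107 and 103 CPM in controls and at 95.7, 91.5 and 94.6 CPM in PTEC DN RAR mice. All PTEC DN RAR libraries were below all controls, but the difference was small and not called (1.17-fold lower, log2 fold change -0.23, SE 0.09; edgeR, adjusted p = 0.0624). On the pan-leukocyte scale it was -0.01 (edgeR, adjusted p = 0.938), and it was called with DESeq2 and with RLE scaling in edgeR (-0.26 with each; adjusted p = 0.0244 and 0.0346). The ratio of *Mlkl* to *Gsdmd* counts, the pore formers of necroptosis and of pyroptosis, was 0.414, 0.419 and 0.423 in controls against 0.183, 0.187 and 0.251 in PTEC DN RAR mice. The controls agreed closely and the genotypes did not overlap.

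*Nlrp1b* (ENSMUSG00000070390, chr11:71153102-71230733, minus strand), a sensor that is activated by proteolysis of its own N-terminus, was the single gene of the 10 with a higher mean. It was at 23.9, 37.0 and 22.3 CPM in controls and at 36.7, 47.1 and 34.9 CPM in PTEC DN RAR mice. Control replicate 2 lay within the range of PTEC DN RAR mice. The log2 fold change was 0.52 (SE 0.20; edgeR, adjusted p = 0.0671), and 0.73 on the pan-leukocyte scale (edgeR, adjusted p = 0.0111). Without control replicate 2 it was 0.74 (edgeR, adjusted p = 0.0101), and without each of the other libraries it was not called. The lowest value was 0.34, without control replicate 3 (edgeR, adjusted p = 0.268).

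*Nlrp1b* lies between 2 near copies on chromosome 11, whose shared sequence makes counts of each uncertain where reads align to more than 1 place. *Nlrp1a*, 8.4 kb away, was at 21.4, 28.2 and 24.4 CPM in controls and 19.4, 20.7 and 19.1 CPM in PTEC DN RAR mice (log2 fold change -0.32, SE 0.12; edgeR, adjusted p = 0.0644). The pseudogene *Nlrp1c-ps*, 11.7 kb to the other side, was at 7.10, 12.5 and 8.36 CPM in controls and 14.3, 23.8 and 13.5 CPM in PTEC DN RAR mice. It was called higher (log2 fold change 0.89, SE 0.27; edgeR, adjusted p = 0.0288), though not without control replicate 1 or 3 or PTEC DN RAR replicate 2 (edgeR, adjusted p from 0.0793 to 0.111). Of the 3 neighbours, *Nlrp1c-ps* alone was called. The ratio of *Nlrp1b* to *Nlrp1a* counts was 1.12, 1.31 and 0.914 in controls against 1.89, 2.28 and 1.83 in PTEC DN RAR mice, without overlap. *Nlrp3* counts per *Nlrp1b* count went from 6.85, 4.37 and 8.10 to 2.58, 1.80 and 2.59.

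**Figure D4:**
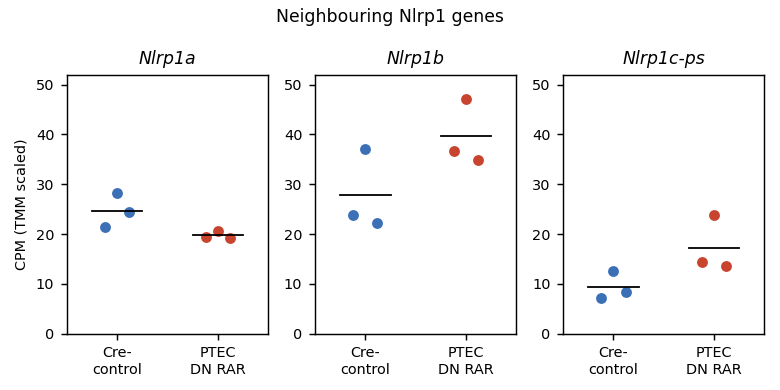
TMM-scaled CPM of *Nlrp1a*, *Nlrp1b* and the pseudogene *Nlrp1c-ps* in each library, on a shared linear axis from 0, with points for mice and a line for the mean of 3. PTEC DN RAR libraries are all below controls for *Nlrp1a*, overlap them for *Nlrp1b*, and are all above them for *Nlrp1c-ps*.

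Sequence upstream of the genes was searched for letters bound by factors of inflammatory transcription, in the 250 bases before each RefSeq start (GRCm38.p6). RefSeq windows matched 9 of the 10 genes (all but *Gsdmd*). Motifs searched on both strands were GAAANNGAA (ISRE core), TTCNNNGAA (GAS), GGGANTTTC (NF-kB core) and AGAGGAAGT (PU.1), which match 7.13%, 7.02%, 0.941% and 0.798% of 32851 windows. The windows of *Mlkl* and *Ripk3* hold none of these letters. The *Nlrp1b* window printed below holds the PU.1 letters, shown in capitals, which begin 97 bases before the start. The *Nlrp1b* window at another start (chr11:71201457-71201706) holds none. A second start of *Ripk1* had the GAS letters in its window, and the remaining windows had none of the 4 motifs. Windows of *Mlkl*, *Ripk3* and *Nlrp1b* are given 5′ to 3′ on each gene's own strand, as chr8:111338206-111338455, chr14:55788858-55789107 and chr11:71230734-71230983, all on the minus strand.
Mlkl: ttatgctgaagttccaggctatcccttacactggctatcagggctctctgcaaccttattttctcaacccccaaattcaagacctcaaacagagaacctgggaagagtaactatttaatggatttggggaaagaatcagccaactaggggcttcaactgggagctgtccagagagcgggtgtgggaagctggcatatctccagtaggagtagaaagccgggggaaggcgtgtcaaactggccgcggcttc
Ripk3: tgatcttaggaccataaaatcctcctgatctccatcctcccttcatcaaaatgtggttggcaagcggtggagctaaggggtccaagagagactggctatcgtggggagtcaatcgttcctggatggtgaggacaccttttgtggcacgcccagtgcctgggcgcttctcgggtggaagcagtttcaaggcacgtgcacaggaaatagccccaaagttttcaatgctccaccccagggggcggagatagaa
Nlrp1b: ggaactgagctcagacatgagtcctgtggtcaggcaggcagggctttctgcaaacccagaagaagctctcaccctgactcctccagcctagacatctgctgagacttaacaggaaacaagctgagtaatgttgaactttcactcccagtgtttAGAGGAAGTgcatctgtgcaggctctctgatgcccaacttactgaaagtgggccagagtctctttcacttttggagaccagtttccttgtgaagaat

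Levels can be compared between genes only per length, so CPM were divided by the length of all exons of a gene in kb. In Cre- controls *Gsdmd* had the highest level, at 46.2 CPM per kb, followed by *Nlrp3* at 41.5 and *Casp1* at 39.6 CPM per kb. These neighbours in the order overlapped between libraries. *Casp8* (32.6 CPM per kb) and *Pycard* (24.3) came next, each without overlap with its neighbours. *Mlkl* and *Ripk3*, at 20.0 and 18.5 CPM per kb, overlapped, and *Ripk1* (10.5), *Casp4* (7.32) and *Nlrp1b* (4.39) were lowest, each apart from the next. In PTEC DN RAR mice *Gsdmd* stood apart at 39.5 CPM per kb, above *Casp1* at 26.5 and *Nlrp3* at 22.2 CPM per kb. *Casp8* and *Pycard* overlapped, at 19.4 and 18.5 CPM per kb, as did *Ripk3* and *Mlkl* at 9.68 and 8.43 CPM per kb. *Ripk1* and *Casp4*, at 6.66 and 5.49 CPM per kb, did not overlap, and *Nlrp1b* between them, at 6.28, overlapped both and also *Mlkl*. The order depends on the length used. With the median length of coding transcripts, a choice made after seeing the data, *Gsdmd* was still highest and *Nlrp1b* lowest in controls, at 122 and 7.22 CPM per kb, while *Casp4* was at 30.2 CPM per kb. By this length the control means of *Casp8* (50.1) and *Pycard* (43.1) were above those of *Nlrp3* (42.8) and *Casp1* (39.6).

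Other genes of these pathways were read from 7 lists with 97 genes, of which 85 could be tested. Of these 85, 30 were called lower and 2 higher (*Nlrp6* and *Serpinb1a*), with a median log2 fold change of -0.23. The counts of each list stand beside 17.1% of all genes called lower and 23.6% called higher, and on the pan-leukocyte scale beside 742 lower and 4900 higher of 15440 genes. Among 13 other inflammasome sensors tested, 3 were lower, a share near that of all genes, and 1 was higher. The calls of *Mefv* and *Naip1* held on the pan-leukocyte scale. *Mefv*, which encodes pyrin, was at 41.8, 42.5 and 40.9 CPM in controls and 16.8, 15.7 and 24.9 CPM in PTEC DN RAR mice (log2 fold change -1.13, SE 0.17; edgeR, adjusted p = 0.00142). *Naip2*, a partner of NLRC4 that binds bacterial secretion system proteins, fell by 0.45 on the log2 scale (edgeR, adjusted p = 0.00303). The third, *Naip1*, fell from 1.74 to 2.89 CPM in controls to 0.170 to 0.573 CPM in PTEC DN RAR mice (edgeR, adjusted p = 0.0022). It has near copies and was named after its values had been seen. *Nlrp6*, a sensor best known from intestinal epithelium, was the gene called higher, at 2.59, 1.85 and 2.66 CPM in controls and 6.43, 11.0 and 9.22 CPM in PTEC DN RAR mice (log2 fold change 1.90, SE 0.24; edgeR, adjusted p = 0.000759). Tubule markers were higher in these libraries, and their part in the *Nlrp6* change was not tested. *Nlrc4* and *Aim2*, sensors of flagellin-bound NAIPs and of cytosolic DNA, had log2 fold changes of -0.27 and -0.25 (edgeR, adjusted p = 0.0809 and 0.142).

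Among 11 tested regulators of NLRP3 activation, 4 were lower. *Irgm1*, an interferon-inducible GTPase, fell by 0.79 on the log2 scale, the channel gene *Panx1* by 0.48, and *Nek7*, the kinase that licenses NLRP3, by 0.27 (edgeR, adjusted p = 0.0104, 0.0113 and 0.0247). *Nek7* was not called without control replicate 3 or PTEC DN RAR replicate 1 or 2 (edgeR, adjusted p from 0.0655 to 0.0695). The 4 calls were lost on the pan-leukocyte scale, where 1 gene, *Txnip*, was higher (0.46; edgeR, adjusted p = 0.0129). Of 14 listed inflammasome substrates, gasdermins and membrane rupture genes, 6 were tested, and the same 4 of these (*Il1a*, *Il1b*, *Il18* and *Ninj1*) were lower with either scaling. *Il1b* was at 1186, 1115 and 964 CPM in controls and 783, 621 and 658 CPM in PTEC DN RAR mice (log2 fold change -0.66, SE 0.13; edgeR, adjusted p = 0.00408). *Il18* fell by 0.74 and *Il1a* by 0.89 on the log2 scale (edgeR, adjusted p = 0.00237 and 0.00126). *Ninj1*, which ruptures the plasma membrane after pore formation, was at 343, 185 and 264 CPM in controls and 142, 103 and 143 CPM in PTEC DN RAR mice (log2 fold change -1.03, SE 0.22; edgeR, adjusted p = 0.00661). Its controls were widely spread, but the genotypes did not overlap. *Serpinb1a*, an inhibitor of neutrophil serine proteases and inflammatory caspases named after its values had been seen, was at the threshold (0.54; edgeR, adjusted p = 0.0499), and the call held without PTEC DN RAR replicate 2 but was lost without each of the other libraries (edgeR, adjusted p from 0.0621 to 0.213). Without single libraries its log2 fold change ran from 0.26 to 0.66. The call was lost with limma-voom and with RLE scaling in edgeR (adjusted p = 0.072 and 0.0707), and with library size alone (edgeR, adjusted p = 0.0502). It held on the pan-leukocyte scale (0.77; edgeR, adjusted p = 0.0247). Of the other gasdermin genes, *Gsdme* was tested and not called (-0.42; edgeR, adjusted p = 0.118), and *Gsdma2*, *Gsdma3* and *Gsdmc* had 0 reads in all libraries, where 3 reads are 0.0645 to 0.102 CPM.

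Of the 20 partners in caspase-8 and RIPK1 complexes, 4 were lower, a share near the 17.1% of all genes. *Tbk1*, a kinase that restrains RIPK1, fell by 0.60 on the log2 scale, the ubiquitin editor gene *Tnfaip3* by 0.34 and the ubiquitin ligase gene *Birc3* by 0.28 (edgeR, adjusted p = 0.00198, 0.0299 and 0.0227). *Fadd*, the adaptor that recruits caspase-8, had a log2 fold change of -0.17 (edgeR, adjusted p = 0.341). Of the 20, 16 were not called, among them *Fadd* and *Cflar*. *Birc3* lost its call without PTEC DN RAR replicate 1 or 2, and *Tnfaip3* without control replicate 1 or 2 or PTEC DN RAR replicate 2 (edgeR, adjusted p from 0.0559 to 0.0934). On the pan-leukocyte scale 1 of the 20 (*Tbk1*) was lower, again near the share of all genes, and 2 were higher.

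Of 10 tested necroptosis triggers, 5 were lower. *Tlr4*, the lipopolysaccharide receptor, was at 105, 119.9 and 132 CPM in controls and 54.8, 68.1 and 51.7 CPM in PTEC DN RAR mice (log2 fold change -1.03, SE 0.13; edgeR, adjusted p = 0.000695). *Zbp1*, the sensor of Z-form nucleic acids that activates RIPK3, fell by 0.79 on the log2 scale, with a wide spread of 166 to 278 CPM in controls and 86.5 to 158 CPM in PTEC DN RAR mice (edgeR, adjusted p = 0.028). *Fas* fell by 0.43 and *Tnf* by 0.37 (edgeR, adjusted p = 0.0251 and 0.0481). The calls of *Zbp1*, *Fas* and *Tnf* were each lost without PTEC DN RAR replicate 1 or 2, those of *Zbp1* and *Tnf* also without control replicate 1, that of *Tnf* without control replicate 2 and that of *Fas* without control replicate 3 (edgeR, adjusted p from 0.0533 to 0.14). *Tnf* also lost its call with limma-voom (adjusted p = 0.0527), and with a minimum of 10 counts or library size alone (edgeR, adjusted p = 0.0597 and 0.0609). On the pan-leukocyte scale 1 of the 10 triggers (*Tlr4*) was lower. Of 15 genes of necroptosis execution and membrane repair, 5 were lower, among them *Chmp4b* (-0.43), a subunit of the ESCRT-III complex that sheds damaged membrane, *Vps4a* (-0.30), the ATPase that disassembles it, and *Hsp90ab1* (-0.38), a chaperone of RIPK3 and MLKL (edgeR, adjusted p = 0.0154, 0.014 and 0.0124). *Chmp4b* lost its call without PTEC DN RAR replicate 1 (edgeR, adjusted p = 0.0552). The 5 calls were lost on the pan-leukocyte scale, where 2 genes were higher.

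Among 10 tested apoptotic caspases and partners, 5 were lower. *Apaf1*, the scaffold of the apoptosome, was at 106, 121 and 122 CPM in controls and 71.3, 77.5 and 70.8 CPM in PTEC DN RAR mice (log2 fold change -0.66, SE 0.09; edgeR, adjusted p = 0.000969). On the pan-leukocyte scale 2 of the 10 were lower and 2 were higher.

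**Figure D5:**
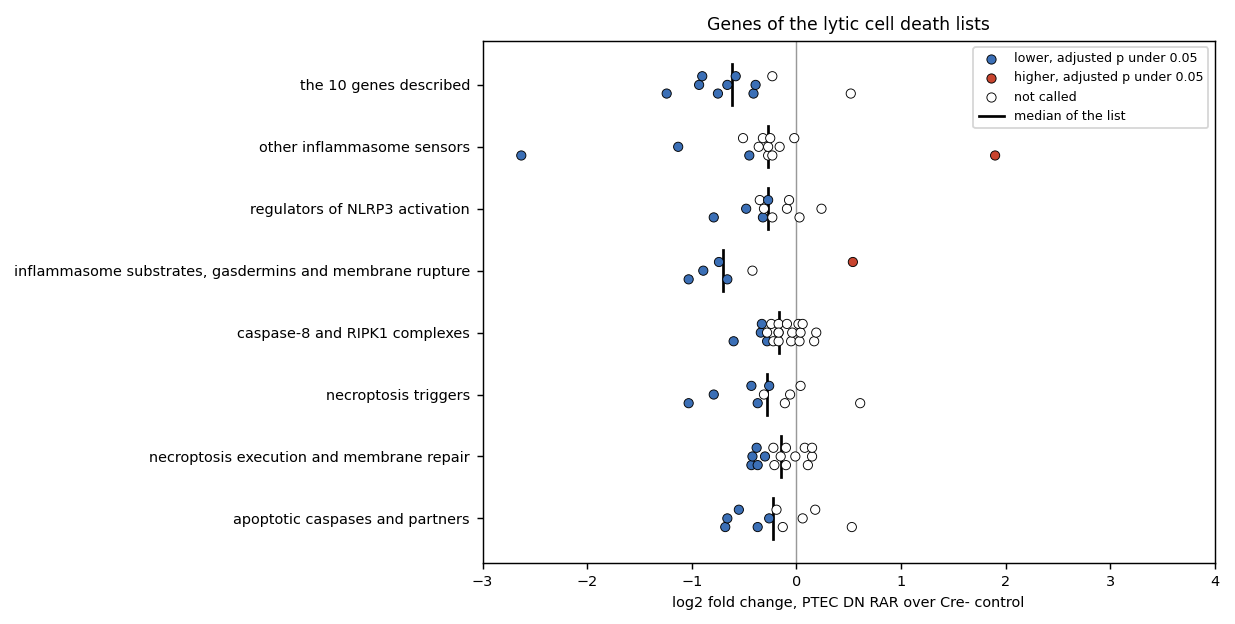
Log2 fold change (PTEC DN RAR over Cre- control) of every tested gene of the 10 genes and of 7 lists of the same pathways, with genes called lower in blue, genes called higher in red and genes not called open. The vertical bars are list medians, which run from -0.70 for inflammasome substrates, gasdermins and membrane rupture to -0.15 for necroptosis execution and membrane repair, with -0.62 for the 10 genes.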

How the data were processed

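The authors deposited raw read counts per gene for the 6 libraries. The submitters' processing notes name STAR 2.5.0a, HTSeq 0.6.1, edgeR, limma and GRCm38. The table marks 42.93% to 47.75% of alignments per library as not unique, and such reads are not in the gene counts, which lowers genes with near copies. Of 46612 gene lines, 9 repeats were collapsed and 27 date-like symbols restored. Coordinates and exon lengths are from GENCODE M21 (46091 identifiers found), and promoter windows from RefSeq. Genes kept by filterByExpr were scaled with TMM and fitted in edgeR 4.0.16 (glmQLFit, glmQLFTest; R 4.3.3). P-values of the 15440 genes were adjusted by Benjamini-Hochberg, with calls under 0.05. SE is the log2 fold change divided by the root of F. Alternatives were limma-voom (3.58.1), DESeq2 1.42.0, no filter, a minimum of 10 counts per library, library size alone, RLE or pan-leukocyte scaling, a replicate block and leaving out each library in turn. The tests were checked on simulated counts. Tables and figures were made with Python 3.11.15.

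Mice were grouped by labelled genotype, and libraries of 1 genotype differed well beyond sampling noise (chi-square over its degrees of freedom from 27.1), so no library was taken as a repeat. *Rara* reads cannot check the Rosa26 transgene, which tubule cells express. Genes named are the 10 genes, 12 pathway genes always named, and up to 3 genes per list called with the lowest adjusted p, averaging 5 CPM or more without overlapping genotypes, plus neighbours and near copies. Some genes of this rule are not reported here. The genes and all lists were chosen with earlier results of these data known.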

Additional observations from a re-analysis of the deposited data

How the results depend on the processing

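Over 14 alternatives, 140 values of the 10 genes gave 122 with the same direction and call, 11 that lost a call, 7 that gained one and 0 that turned sign. The 10 genes had 1 called higher (*Nlrp1b*) under limma-voom, no filter, pan-leukocyte scaling and the replicate block, and 0 to 1 when each library was left out, with 1 without Cre- control replicate 2. Those called lower numbered 6 to 9 over all alternatives, with *Pycard*, *Casp4* and *Gsdmd* gained or lost. Over all genes, pan-leukocyte scaling called 742 lower against 2636, since by its construction it moved the median over genes from 0.04 to 0.25 on the log2 scale. Among 35 other named genes, 421 of 489 values kept direction and call, and the 7 that turned sign were small: *Cflar* at -0.01 with DESeq2, -0.00 with no filter, -0.01 with RLE, -0.04 without Cre- control replicate 1 and -0.07 without PTEC DN RAR replicate 2 (its values without single libraries ran from -0.07 to 0.08), and *Fadd* at 0.04 and *Casp12* at 0.02 with pan-leukocyte scaling. Replicate numbers join different mice and were not treated as pairs. Over all genes, deviations of same-numbered libraries correlated at -0.015, 0.211 and 0.029. Pairing of single genes was not tested. With the block, the SE of *Nlrp1b* went from 0.20 to 0.09 and that of *Zbp1* from 0.24 to 0.29. With the replicate block, 2606 genes were lower and 3612 higher, *Nlrp1b* and *Rara* gained a call (0.54 and -0.33; edgeR, adjusted p = 0.00816 and 0.0441), and *Zbp1*, *Tnf* and *Serpinb1a* lost theirs (edgeR, adjusted p = 0.0688, 0.0862 and 0.0792). It changed no other call of a named gene. Without single libraries, all genes called lower ranged from 1874 to 2824 and higher from 2433 to 3699. With 3 mice per genotype, p-values measure the spread between these mice only. Depth gave each of the 10 genes at least 703 reads per library, and since reads carried no molecular identifiers, such counts bound counting error only.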
